A study of Mus musculus with 50 samples.

Results

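The kinases of the MAP kinase cascade and the proteins that restrain it were followed on cDNA arrays of the paraventricular nucleus (PVN) of the hypothalamus, the nucleus that starts the hormonal stress response. Members were chosen by the name that the array gives a clone, which had to begin with mitogen activated protein kinase (of any tier), MAP kinase, p21-activated kinase, dual specificity phosphatase, sprouty or ribosomal protein S6 kinase. This gave 88 of 22824 clones. They carry 59 gene names, of which 43 are represented by 1 clone and 16 by several, up to 5. The rule reads names alone.

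Male mice of the inbred strains C57BL/6J and DBA/2J, 3 to 5 months old and housed singly, were either left non-stressed or made to swim for 5 min and killed 4 h or 8 h later. All were killed at the same clock time, so that the 8 h groups swam earlier in the day than the 4 h groups. No mutant allele, transgene or drug was used. RNA punched from the PVN of 6 animals was pooled for each of the 6 conditions and amplified, and pairs of pools were hybridised together, one labelled with Cy5 and the other with Cy3. The 5 comparisons were stressed against non-stressed at 4 h and at 8 h in each strain, and DBA/2J against C57BL/6J without stress, each on 10 arrays with 5 in each dye orientation. As there was 1 pool per condition, the 10 arrays repeat the same 2 RNAs. Standard errors (SE) and p-values thus speak of the labelling and the hybridisation only, and how much animals vary is unknown here.

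In the MAP kinase cascade a signal from a growth factor receptor or a cell stress passes from kinases of the upper tiers (MAP4K and MAP3K) to a MAP2K, which phosphorylates and activates a MAP kinase. The classical products are the kinases ERK, JNK and p38, which act on transcription factors and on further kinases such as the S6 kinases. Dual specificity phosphatases switch MAP kinases off, and Sprouty and Spred proteins hold back the signal between receptor and ERK. Several of these brakes are themselves transcribed in response to the pathway, which takes part in synaptic plasticity in the brain. The arrays report RNA and not phosphorylation.

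Values are log2 ratios, stressed over non-stressed or DBA/2J over C57BL/6J, and their direction follows the dyes given in the labels. The authors' deposited ratios ran in this direction too (correlation 0.883 to 0.972 over the arrays). The study's own lists give the opposite sign, and its real-time PCR of other genes in DBA/2J, on unpooled samples, followed the direction of those lists. The study also reports an increase by in situ hybridisation, with the data not shown. The direction is therefore not settled, and every direction below turns round if the lists hold. The call used here required a ratio of at least 1.414-fold either way and a Benjamini-Hochberg adjusted p of limma under 0.05 over all 22824 clones. A spot was taken as above background where it exceeded 95% of the 1170 empty spots, and a clone as measured in a comparison where the mean of both channels did so on at least 5 of 10 arrays.

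Brightness differed between comparisons, and with it the number of members that could be read. Of the 88 member clones, 59 (67.0%) were measured on the C57BL/6J arrays for 4 h, 29 (33.0%) on the DBA/2J arrays for 4 h, 17 (19.3%) on the arrays of the non-stressed strains, 27 (30.7%) on the C57BL/6J arrays for 8 h and 8 (9.1%) on the DBA/2J arrays for 8 h. Over all clones the shares were 65.2%, 22.8%, 17.0%, 25.9% and 7.1%. The 8 clones measured in all 5 comparisons included Dusp8, Map2k4, Pak3, clone 1 of Map2k1ip1, clone 2 of Mapk8, clone 5 of Mapk9 and clone 5 of Mapk10, and 28 clones were measured in none. Of 8 clones of 6 PVN markers 6, 4, 2, 3 and 0 were measured in the same order. Oxt, which encodes oxytocin, was above background on 1 array in the stressed and on 3 in the non-stressed C57BL/6J pool for 4 h. It was so on 0 arrays elsewhere, so that the tissue was not marked by it. In C57BL/6J at 4 h Trh was above background on 10 arrays in each pool and Avp on 10 and 9. In DBA/2J at 8 h Trh was so on 0 arrays and Avp on 3 in each pool. When the arrays of each comparison were split by dye orientation, the 2 sets of mean ratios had correlations of -0.261 to 0.116 across all clones and of -0.16 to 0.236 across the members, and clones are not independent replicates. Pairs of single arrays with the same 2 pools and the same dye orientation had correlations of only 0.045 to 0.182 across all clones.

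**Figure D1:**
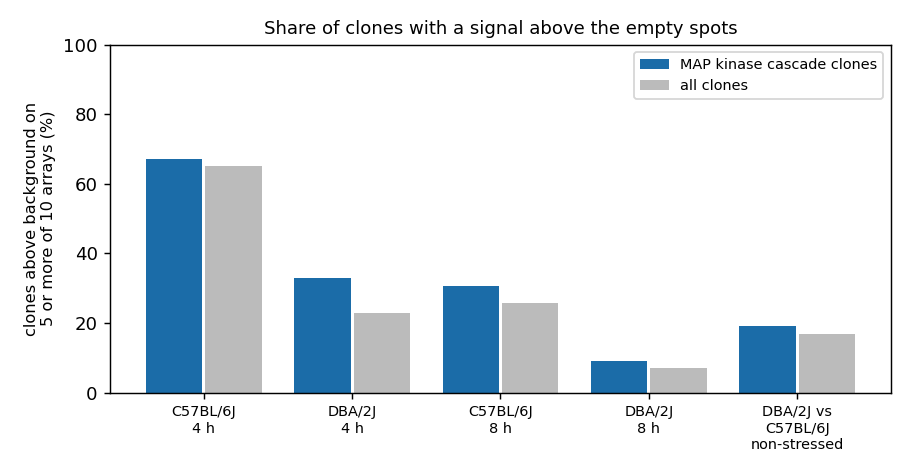
Share of clones measured above the empty spots in each of the 5 comparisons, in percent of the 88 member clones (blue) and of all 22824 clones (grey). The share of members falls from 67.0% on the C57BL/6J arrays for 4 h to 9.1% on the DBA/2J arrays for 8 h and lies above that of all clones in each comparison.

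No member was called after forced swimming in either strain at either time. The share of all clones called was 0.289% in C57BL/6J and 0.153% in DBA/2J at 4 h, and 0.0832% and 0.158% at 8 h. At an unadjusted p under 0.05, 10 members (11.4%, 3 higher and 7 lower) passed in C57BL/6J at 4 h, 17 (19.3%, 7 higher and 10 lower) in DBA/2J at 4 h, 8 (9.1%, 3 higher and 5 lower) in C57BL/6J at 8 h and 9 (10.2%, 3 higher and 6 lower) in DBA/2J at 8 h. Over all clones the shares were 12.3%, 10.7%, 9.28% and 12%. Counts at an unadjusted p, here and below, include clones that were not measured, among members and all clones alike. Of the 17 in DBA/2J at 4 h, the measured ones were 2 MAP kinase, 2 scaffold, 1 phosphatase and 1 S6 kinase clones. The others included 3 of the 4 MAP4K clones. Of the 9 in DBA/2J at 8 h, 1 was measured, a scaffold clone. The methods' t-test, taken with the same fold, gave 4, 2, 5 and 1 members before adjustment and 0 in each comparison after it. Median log2 ratios of the members were -0.02, -0.04, -0.07 and -0.03, beside 0.00, 0.00, -0.01 and 0.00 over all clones. The 95% interval stayed within 2-fold either way for 59 of 59 measured members in C57BL/6J at 4 h, 28 of 29 in DBA/2J at 4 h, 27 of 27 in C57BL/6J at 8 h and 8 of 8 in DBA/2J at 8 h.

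Between the non-stressed strains 2 of the 88 members were called, Map2k4 and Map2k1, both lower in DBA/2J. Of all clones 3.62% were called, and 2.02% were called lower. At an unadjusted p under 0.05, 13 members (14.8%) passed, 7 higher and 6 lower in DBA/2J, against 15.4% of all clones. The median log2 ratio of the members was -0.03, beside 0.01 over all clones.

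**Figure D2:**
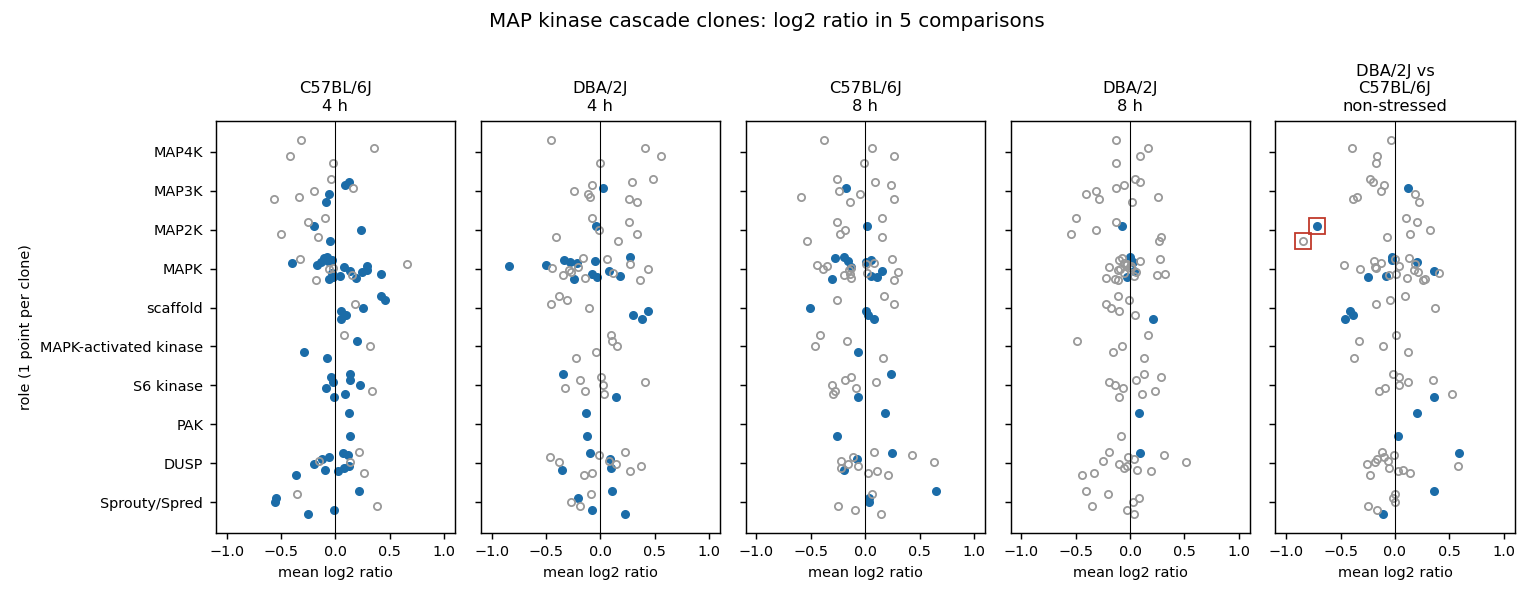
Fitted log2 ratio of the 88 member clones in the 5 comparisons, grouped by role, with 1 point per clone. Filled points are measured clones, open points are dimmer ones and red squares are called clones. The calls are Map2k4, which was measured, and Map2k1, which was not, both between the non-stressed strains, and the measured clones in DBA/2J at 8 h lie between -0.08 and 0.21.

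The upper tiers of the cascade gave few values. None of the 4 MAP4K clones (Map4k1, Map4k2, Map4k5 and Map4k6) was measured in any comparison. Of 9 MAP3K clones, 4 were measured in C57BL/6J at 4 h, at -0.09 for Map3k1, 0.09 for Map3k4, 0.12 for Map3k6 and -0.06 for clone 2 of Map3k12 (SE 0.09 to 0.16). Map3k3 was measured in 3 other comparisons, at 0.03 in DBA/2J at 4 h (SE 0.13), -0.18 in C57BL/6J at 8 h (SE 0.12) and 0.12 between the strains (SE 0.14). The 95% interval of each of these values included 0. Map3k8, Map3k11 and Map3k14 were not measured. The study lists Map3k12 among its examples of genes that differed between the non-stressed strains. Here neither of its 2 clones was measured or called in that comparison, with fitted values of -0.35 and 0.18.

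Among the MAP2Ks, Map2k4, which phosphorylates JNK and p38, had the lowest adjusted p of the members in the 5 direct comparisons. Its RNA was lower in the non-stressed DBA/2J pool. The ratios on the 10 arrays ran from -1.05 through a median of -0.81 to -0.20, all 10 below 0, with both pools above background on 10 of 10 arrays. The fitted log2 ratio was -0.72 (SE 0.13, 95% interval -1.0 to -0.44, adjusted p = 0.0066 by limma), and 0.72 with the sign turned. Each array could be left out in turn without ending the call, with values from -0.76 to -0.69. The 5 arrays with DBA/2J in Cy5 gave -0.55 (adjusted p = 0.303) and the 5 with it in Cy3 gave -0.89 (adjusted p = 0.086), the same direction in each.

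Forced swimming left Map2k4 without a called difference in either strain. Its log2 ratio was -0.19 (SE 0.08, adjusted p = 0.36) in C57BL/6J and -0.04 (SE 0.12, adjusted p = 0.942) in DBA/2J at 4 h. At 8 h the values were 0.02 (SE 0.12, adjusted p = 0.98) and -0.08 (SE 0.08, adjusted p = 0.771). On the C57BL/6J arrays for 4 h, 8 of 10 ratios were below 0, whereas those of the other 3 stress comparisons fell on both sides with 3 to 7 above 0. Both pools were above background on 10 of 10 arrays in each, so that dimness did not limit these values. In DBA/2J at 4 h, however, the dye orientations differed in sign. The value was -0.32 with the stressed pool in Cy5 and 0.24 with it in Cy3 (adjusted p = 0.548 and 0.62 by limma).

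Map2k1 activates ERK. Between the non-stressed strains its ratios ran from -2.68 through -0.64 to -0.01, 10 of 10 below 0 (adjusted p = 0.0305). The arrays with DBA/2J in Cy5 gave -1.36 (adjusted p = 0.127 by limma) and those with it in Cy3 gave -0.33 (adjusted p = 0.521). The signal of Map2k1 was not well above background in either pool on any of these arrays, so no fold is given. Leaving out any of 9 arrays ended the call, with adjusted p up to 0.0764. On the C57BL/6J arrays for 4 h, the 1 comparison in which it was measured, it stood at -0.05 (SE 0.19, adjusted p = 0.952). Map2k3, which activates p38, was measured there too, at 0.24 (SE 0.17, adjusted p = 0.634). Map2k2, Map2k5 and Map2k7 were not measured.

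**Figure D3:**
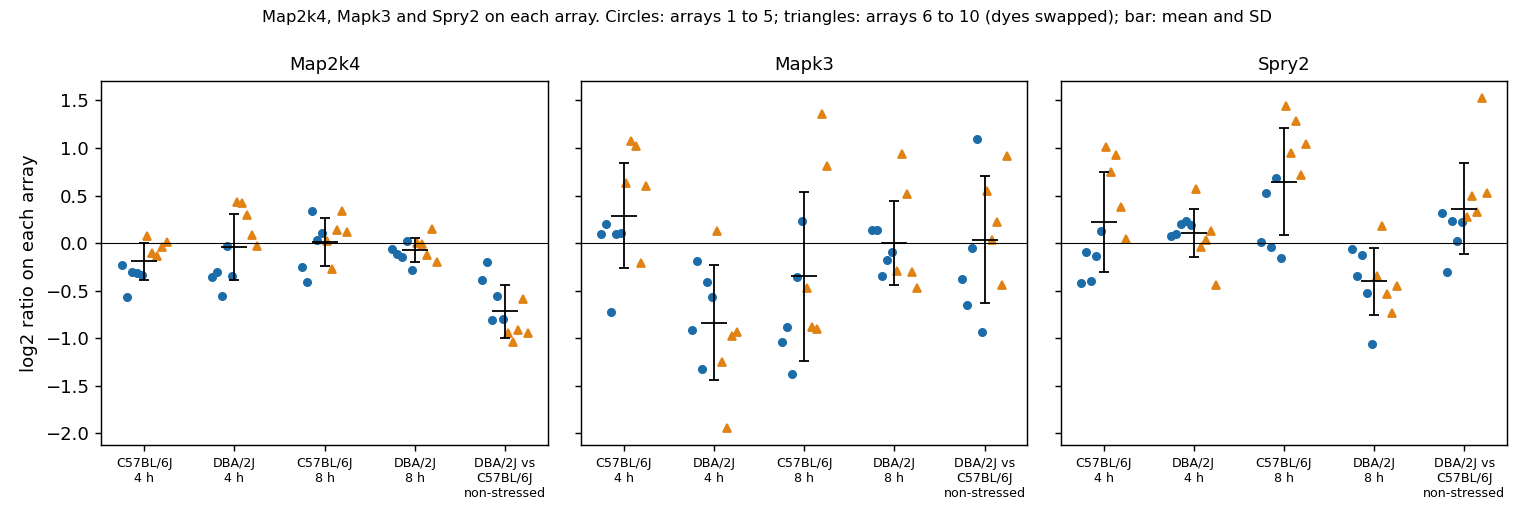
Log2 ratio of Map2k4, Mapk3 and Spry2 on each of the 10 arrays of the 5 comparisons. Circles are arrays 1 to 5 and triangles arrays 6 to 10 with the dyes swapped, and the bar gives the mean and SD. Map2k4 lies below 0 on all 10 arrays of the non-stressed strains, Mapk3 on 9 of 10 DBA/2J arrays for 4 h, and Spry2 lies above 0 on 8 of 10 C57BL/6J arrays for 8 h, with the triangles above most circles.

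Cell type markers also differed between the non-stressed pools. Of 28 astrocyte marker clones 5 were higher and 0 lower in DBA/2J, 4 of the 5 being clones of Glul, with a summed intensity over the list of 107370 to 131985 in the DBA/2J pool and of 80877 to 105803 in the C57BL/6J pool. Of 31 oligodendrocyte clones 7 were higher and 2 lower, with sums of 66488 to 88126 and 80615 to 154922. Of 10 thalamus clones 2 were higher and 1 was lower (48055 to 75097 and 38992 to 68750), of 5 blood cell clones 2 were higher, and of 8 PVN clones 1, a clone of Scg2, was lower (5042 to 8001 and 5316 to 9100). No endothelial or microglial clone was called. The part of tissue composition in the differences between the strains given here was not tested, and in bulk tissue fewer cells of a type and less RNA per cell cannot be told apart.

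Map2k1ip1 encodes the scaffold now named Lamtor3, which joins Map2k1 to ERK on late endosomes. Each of its 3 clones stood lower in the non-stressed DBA/2J pool, and none was called. The ratios of clone 1 ran from -1.13 through -0.47 to 0.16, those of clone 2 from -0.94 through -0.39 to -0.02 and those of clone 3 from -0.80 through -0.46 to -0.05. Clones 2 and 3 were thus below 0 on 10 of 10 arrays and clone 1 on 8. The fitted values were -0.46, -0.39 and -0.41 (SE 0.16, 0.14 and 0.13, adjusted p = 0.15, 0.164 and 0.115 by limma). With print-tip loess clone 1 was called at -0.54 (adjusted p = 0.033), as it was in the authors' processed values at -0.63 (adjusted p = 0.0232).

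The same 3 clones stood higher in the stressed DBA/2J pool at 4 h, again without a call. The ratios ran from -0.09 through 0.36 to 0.76 for clone 1, from -0.32 through 0.32 to 1.05 for clone 2 and from -0.06 through 0.47 to 0.89 for clone 3. The fitted values were 0.39, 0.30 and 0.44 (SE 0.13, 0.14 and 0.13, adjusted p = 0.274, 0.49 and 0.228), with 9, 7 and 9 of 10 arrays above 0. The non-stressed DBA/2J pool enters both this comparison and that of the strains. In C57BL/6J the clones were at 0.06, 0.10 and 0.05 at 4 h and at 0.08, 0.02 and 0.01 at 8 h. In DBA/2J at 8 h clone 1 was above 0 on 10 of 10 arrays at 0.21 (SE 0.08, adjusted p = 0.347), the highest of the 8 measured members there, while clones 2 and 3 were dim. The change from 4 h to 8 h in DBA/2J was -0.54 (adjusted p = 0.0855) for clone 3, and its strain difference at 4 h was 0.39 (adjusted p = 0.194).

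**Figure D4:**
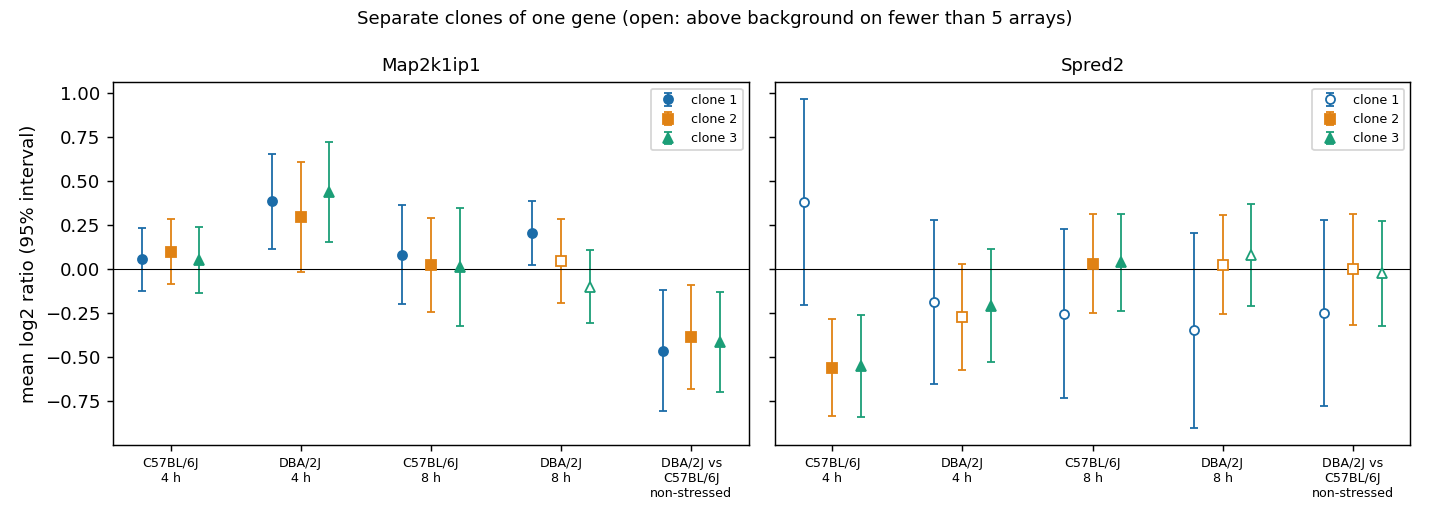
Fitted log2 ratio with 95% interval for the 3 clones each of Map2k1ip1 and Spred2 in the 5 comparisons, open where a clone was not measured. The clones of Map2k1ip1 lie together below 0 between the non-stressed strains (-0.46, -0.39 and -0.41) and above 0 in DBA/2J at 4 h (0.39, 0.30 and 0.44), and clones 2 and 3 of Spred2 lie together in C57BL/6J at 4 h (-0.56 and -0.55).

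The other scaffolds hold JNK modules together and are known as JNK-interacting proteins. Mapk8ip1 was measured in C57BL/6J alone, with a log2 ratio of 0.25 at 4 h (SE 0.12, adjusted p = 0.416) and of -0.51 at 8 h (SE 0.17, adjusted p = 0.369). At 8 h its ratios ran from -1.77 through -0.64 to 0.51, and 8 of 10 were below 0, against 3 of 10 at 4 h. The difference between the times was -0.76 (SE 0.21, adjusted p = 0.129), and it was called (adjusted p = 0.0106) when dim clones were left out before the adjustment. In C57BL/6J at 4 h clone 2 of Mapk8ip2 stood at 0.46 (SE 0.13, adjusted p = 0.172) with 9 of 10 arrays above 0, and Mapk8ip3 at 0.42 (SE 0.22, adjusted p = 0.48) with 7 of 10.

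Among the MAP kinases themselves the widest contrast was that of Mapk3, which encodes ERK1. On the DBA/2J arrays for 4 h its ratios ran from -1.95 through -0.93 to 0.13, with 9 of 10 below 0. The non-stressed pool was above background on 7 of 10 arrays and the stressed pool on 0. Mean log2 intensities were 8.92 in the stressed and 9.76 in the non-stressed pool. The fitted log2 ratio was -0.84 (SE 0.19, adjusted p = 0.103 by limma) and was not called. Each dim spot of the stressed pool was also raised to the lowest signal above background on its array. The mean of the non-stressed pool, left as it was, then stood 1.20-fold higher, a value without an interval. With the scan day as a random block Mapk3 was called (adjusted p = 0.0239 by limma). The block correlation was negative (-0.0415), which lowers the SE, so that this call is no support. With an array left out in turn the adjusted p ran from 0.0689 to 0.228.

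In C57BL/6J at the same time Mapk3 ran from -0.72 through 0.16 to 1.07, with 8 of 10 arrays above 0. The fitted value was 0.29 (SE 0.14, adjusted p = 0.445), with the stressed pool above background on 9 arrays and the non-stressed pool on 7. The ranges of the strains overlap. The strain difference of the 4 h response was -1.13 (SE 0.24, adjusted p = 0.0116 by limma), the 1 member called among 88, against 2.34% of all clones. An unadjusted p under 0.05 was reached by 16 members (18.2%), against 13.6% of all clones. The call for Mapk3 held with each of the 20 arrays left out in turn, at -1.27 to -1.01. Arrays with the stressed pool in Cy5 gave -0.64 (adjusted p = 0.379) and the others -1.62 (adjusted p = 0.115). As the stressed DBA/2J pool was not above background, the size of this difference is not a measured fold. Markers moved in the same difference. Of 8 PVN clones, Trh was lower at -1.08 (adjusted p = 0.00032) and Nr3c1 higher at 0.68 (adjusted p = 0.0175), and Trh was also called in DBA/2J at 4 h itself, at -0.75 (adjusted p = 0.0309). Of 28 astrocyte clones 3 were lower, Aldoc at -0.83 and clones of Glul at -0.70 and -0.61. The summed astrocyte intensity was 83668 to 115442 in the stressed and 92680 to 124654 in the non-stressed DBA/2J pool, and 106147 to 131232 and 97695 to 127515 in the C57BL/6J pools. Their part in the difference of Mapk3 was not tested. The non-stressed pools of both strains enter this difference and, with opposite sign, the comparison of the non-stressed strains. In the latter these clones of Glul were higher in DBA/2J, at 0.85 and 1.22. Mapk3 was not measured in the other 3 comparisons.

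Mapk8, Mapk9 and Mapk10 encode JNK1, JNK2 and JNK3, of which JNK3 is largely neuronal. Clones 1 and 2 of Mapk8 stood at -0.40 and -0.13 in C57BL/6J and at -0.22 and -0.28 in DBA/2J at 4 h (SE 0.13 to 0.14, adjusted p = 0.28, 0.765, 0.639 and 0.507). In DBA/2J at 4 h clone 5 of Mapk9 was at 0.27 and clone 2 at -0.33 (adjusted p = 0.535 and 0.479), so that clones of 1 gene differed in direction. In C57BL/6J they were at -0.08 and -0.03. Clone 2 of Mapk10 was above 0 on 10 of 10 C57BL/6J arrays for 4 h, from 0.02 through 0.37 to 1.02 (fitted 0.42, SE 0.11, adjusted p = 0.151), while clones 3, 4 and 5 gave -0.03, 0.24 and 0.13. Between the strains clone 5 of Mapk10 was at 0.36 (SE 0.16, adjusted p = 0.289).

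Mapk14, which encodes p38 alpha, was measured in C57BL/6J, at 0.08 (SE 0.13) at 4 h and -0.13 (SE 0.16) at 8 h. Mapk11, another p38 kinase, was at 0.29 (SE 0.16, adjusted p = 0.51) at 4 h. Mapk6, the atypical kinase ERK3, lay below 0 on 8 of 10 DBA/2J arrays for 4 h, from -1.19 through -0.46 to 0.02. Its fitted value was -0.50 (SE 0.135, adjusted p = 0.173), against -0.17 (SE 0.16, adjusted p = 0.756) in C57BL/6J. Mapk7, or ERK5, and the p38 kinases Mapk12 and Mapk13 were not measured in any comparison.

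Below the MAP kinases, 5 clones of MAP kinase-activated kinases and 9 of S6 kinases held no call. In C57BL/6J at 4 h clones 1 and 2 of Mapkapk2, a target of p38, were at -0.08 and -0.29 (adjusted p = 0.898 and 0.465), and Mknk1, which phosphorylates the cap-binding factor eIF4E, at 0.20 (SE 0.11, adjusted p = 0.529). Rps6ka3, which encodes the kinase RSK2, was measured in 4 comparisons, at -0.01 and 0.14 in C57BL/6J and DBA/2J at 4 h, -0.07 in C57BL/6J at 8 h and 0.35 between the strains (SE 0.17, adjusted p = 0.344). Clone 3 of ribosomal protein S6 kinase, polypeptide 2, a name that does not settle the gene, was at 0.13 in C57BL/6J (SE 0.12) and -0.35 in DBA/2J (SE 0.16, adjusted p = 0.453) at 4 h. All 8 S6 kinase clones measured in C57BL/6J at 4 h lay between -0.09 and 0.23.

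Pak1 and Pak3 are p21-activated kinases, effectors of Rac and Cdc42 that are abundant in neurons. Pak3 was above background in both pools on 10 of 10 arrays of each comparison. Its log2 ratio was 0.13 in C57BL/6J and -0.13 in DBA/2J at 4 h, 0.18 and 0.08 at 8 h and 0.20 between the strains (SE 0.08 to 0.14, adjusted p = 0.534 to 0.745). Pak1 lay between -0.26 and 0.14 in the 4 comparisons in which it was measured. No 95% interval of a measured Pak value reached a 2-fold change.

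Of the brakes, Dusp8, a dual specificity phosphatase that acts on JNK and p38, had the highest value of the members between the non-stressed strains. Its ratios ran from 0.06 through 0.56 to 1.32, above 0 on 10 of 10 arrays, with both pools above background on all. The fitted value was 0.59 (SE 0.16, 95% interval 0.24 to 0.94), just short of the threshold (adjusted p = 0.0642 by limma). Each dye orientation alone gave 0.60 and 0.58. It was called with print-tip loess, median centring, dim clones left out, the authors' processed values and the scan day as a block, at 0.59 to 0.68. It was not called with no background subtraction, an offset of 10, no dye term, the methods' t-test, either orientation alone (adjusted p = 0.311 and 0.303) or any array left out. After stress its values were 0.07 and -0.10 at 4 h in C57BL/6J and DBA/2J and 0.25 and 0.09 at 8 h, with adjusted p = 0.811, 0.83, 0.592 and 0.721.

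Dusp1 and Dusp6 are brakes that are transcribed when the pathway is active, Dusp1 acting on several MAP kinases in the nucleus and Dusp6 on ERK in the cytoplasm. Dusp1 was measured in C57BL/6J at 4 h, where its ratios ran from -1.52 through -0.25 to 0.25 and its fitted value was -0.36 (SE 0.16, adjusted p = 0.388), with 7 of 10 arrays below 0. Clone 1 of Dusp6 was at -0.12 (SE 0.10, adjusted p = 0.702) in C57BL/6J and 0.09 (SE 0.13, adjusted p = 0.861) in DBA/2J at 4 h. Dusp14 was at -0.10 and -0.35 (adjusted p = 0.848 and 0.363) in these comparisons. The remaining phosphatases measured in C57BL/6J at 4 h (clone 2 of Dusp6, Dusp2, Dusp7, Dusp12, Dusp16 and Dusp19) lay between -0.20 and 0.12. Dusp3, Dusp9 and Dusp10 were not measured.

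Spred2 is a membrane protein that keeps Ras from activating Raf. In C57BL/6J at 4 h its clones 2 and 3 had the lowest values of the 59 measured members. The ratios of clone 2 ran from -1.36 through -0.58 to 0.04 and those of clone 3 from -1.20 through -0.53 to 0.02. For each, 9 of 10 arrays lay below 0, and both pools were above background on 9 or 10 arrays. The fitted values were -0.56 (SE 0.13, adjusted p = 0.0987) and -0.55 (SE 0.13, adjusted p = 0.119). When dim clones were left out before the adjustment both were called, with adjusted p = 0.0335 and 0.0455. At 8 h they stood at 0.03 and 0.04, and the difference between the times was 0.59 for each (adjusted p = 0.168 and 0.173). In DBA/2J at 4 h clone 3 was at -0.21 (SE 0.15, adjusted p = 0.669). Clone 1 was dim throughout. Clone 1 of Spred1, a related inhibitor, was at -0.25 in C57BL/6J and 0.23 in DBA/2J at 4 h (adjusted p = 0.426 and 0.656).

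Spry2, an inhibitor of receptor signalling to ERK that growth factors induce, gave the highest value of the members in C57BL/6J at 8 h. Its ratios ran from -0.15 through 0.70 to 1.45, with 8 of 10 above 0. The stressed pool was above background on 9 arrays and the non-stressed pool on 4. The fitted log2 ratio was 0.65 (SE 0.13, adjusted p = 0.122). The dye orientations differed in size, at 0.21 with the stressed pool in Cy5 and 1.09 with it in Cy3. At 4 h they differed in sign in C57BL/6J, at -0.18 and 0.62, with a fitted value of 0.22 (adjusted p = 0.487), and Spry2 was at 0.10 in DBA/2J (adjusted p = 0.825). Between the strains it was at 0.36 (adjusted p = 0.26), above 0 on 9 of 10 arrays.

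In DBA/2J at 8 h Spry2 was above background in neither pool on any array, so no fold is given, and 9 of 10 ratios were below 0 (adjusted p = 0.228). The strain difference of the 8 h response was called for Spry2, at -1.05 (SE 0.17, adjusted p = 0.0027 by limma), 1 of 88 members against 0.6% of all clones. An unadjusted p under 0.05 was reached by 4 members (4.5%), against 10.4% of all clones. The call held with each of the 20 arrays left out in turn, at -1.12 to -0.97. In the dye orientations the difference was -0.63 (adjusted p = 0.481) and -1.47 (adjusted p = 0.0378). Since the DBA/2J signal lay at the level of the empty spots, its size is not a measured fold. In the same difference 1 of 10 thalamus clones, Tcf7l2, was lower at -0.80 and 1 of 28 astrocyte clones, of Glul, higher at 0.66, and their part in it was not tested. The non-stressed pools of both strains enter this difference too, with the sign opposite to the comparison of the non-stressed strains. In that comparison the fitted values of Spry2 and Tcf7l2 were above 0. Spry1 was not measured in any comparison.

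Between 8 h and 4 h, no member was called in C57BL/6J, against 0.495% of all clones, or in DBA/2J, against 1.0%. At an unadjusted p under 0.05 there were 14 (15.9%) and 11 (12.5%) members, against 10.7% and 12.1% of all clones, and the methods' t-test with the same fold called 0 and 1 after adjustment. The pools of a strain were set against the same non-stressed pool at both times, so that its RNA enters each side of these differences. Time since the swim and clock time of the swim cannot be told apart in them.

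Other genes of the pathway were taken from 6 lists, 165 clones of 110 genes. In each of the 4 stress comparisons 0 of the 165 were called by limma. Between the non-stressed strains 9 were called, 5 higher and 4 lower in DBA/2J, or 5.45% beside 3.62% of all clones, with a median of -0.02. Ywhab, a 14-3-3 protein that binds Raf kinases, was higher at 1.12 (SE 0.14, adjusted p = 0.00047), as was Ppp2cb, a catalytic subunit of protein phosphatase 2A, at 0.90 (SE 0.14, adjusted p = 0.0023). Stmn1, a microtubule regulator phosphorylated by MAP kinases, was higher at 0.74 (SE 0.13, adjusted p = 0.0038). Ppp2r5c, a regulatory subunit of protein phosphatase 2A, was lower at -0.64, Ppp1cc, a catalytic subunit of protein phosphatase 1, at -0.55 and Max, the partner of Myc, at -0.54 (adjusted p = 0.0181, 0.0418 and 0.0406). Arhgef7 and a clone of Rps6 were also called higher and Rras2 lower, with signals not above background on most arrays. By list, 2 of 38 upstream clones, 0 of 21 receptor clones, 1 of 25 GTPase clones, 3 of 19 phosphatase clones, 2 of 43 nuclear targets and 1 of 19 clones of the S6 kinase pathway were called.

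In the strain difference of the 4 h response 7 of the 165 were called, 5 higher and 2 lower in DBA/2J, or 4.24% beside 2.34% of all clones. They were Ppp2ca at 0.92, Ppm1a at 0.94, Ppp2cb at 0.60, Git2 at 0.96, Ier3 at 0.61, Rapgef1 at -0.84 and Stmn1 at -0.56 (adjusted p = 0.004 to 0.0488). Of these, Git2, Ppm1a and Rapgef1 were not measured in DBA/2J at 4 h. In that of the 8 h response 1 was called, Ywhab at -0.62 (adjusted p = 0.0455), or 0.61% beside 0.6%. The non-stressed pools of both strains enter these strain differences and, with opposite sign, the comparison of the non-stressed strains. There Ywhab stood at 1.12 and Stmn1 at 0.74, opposite to their strain differences, while Ppp2cb at 0.90 had the same sign. The part of the shared pools in these calls was not tested. Between the times 1 was called in C57BL/6J, Ier3 at 0.64 (adjusted p = 0.0455), and 2 in DBA/2J, Ptpn11 at 1.05 (adjusted p = 0.0402), which was not above background at 8 h, and Rps6 at -0.54 (adjusted p = 0.0413). This was a clone of Rps6 other than the one called between the non-stressed strains, and each was called in only 1 of these 2 contrasts.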

How the data were processed

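All 50 two-colour arrays were used, and the labels gave the comparison of each. The authors scanned them and deposited the intensity of 24192 spots per array in Cy5 and Cy3 with local background, which was 0 for 96.63% of spots. The authors also deposited a table of normalized log2 ratios for 19047 spots, 70 of them members, used as an alternative; its filter is not given in the sources used here. Intensities were corrected by normexp with an offset of 50 and normalized by global loess, and lmFit and eBayes of limma 3.58.1 (R 4.3.3) with a dye term were run over 22824 clones, the 1368 control spots left out. Differences used the 20 arrays of both comparisons. The number of arrays limits the precision. The fit was tested on simulated data: for C57BL/6J at 4 h it recovered 79% of clones changed by a log2 ratio of 1, and for the strain difference at 4 h 35%. The changes were put into ratios already normalized. These shares thus leave out how background and offset shrink the ratios of dim clones. The remaining comparisons and differences, most of them on dimmer arrays, were not simulated.

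Members, lists and rules were chosen with earlier results of these data known. The named genes were members that were called, that the study names or that were the 3 highest or lowest of a comparison, and a set of main kinases and brakes, and other members were named after their values were seen, to account for each role. Of 59 names 57 matched a RefSeq symbol. Arrays of equal number in different comparisons did not deviate together (correlation -0.016 to 0.021). Alternatives changed background, normalization, dim clones, dye term, test, values, orientation, scan day, the replicate block and single arrays. The clones of 1 member gene are counted but not reported here.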

Additional observations from a re-analysis of the deposited data

Results flagged for a closer look

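The response of Mapk3 at 4 h differed between the strains by a log2 ratio of -1.13 (DBA/2J minus C57BL/6J, limma over 20 arrays, adjusted p = 0.0116), with 9 of 10 DBA/2J arrays below 0 and 8 of 10 C57BL/6J arrays above 0, and the stressed DBA/2J pool was above background on 0 of 10 arrays, so that the value is not a measured fold. The response of Spry2 at 8 h differed by -1.051 (adjusted p = 0.0027), with 9 of 10 DBA/2J arrays below 0 and 8 of 10 C57BL/6J arrays above 0, and the DBA/2J signal was not well above background.

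Of 51 values of named members with an unadjusted p under 0.05, each examined for an array far from the rest, 1 had one, and chance alone marks about 1 in 20. Spry2 between the non-stressed strains reached 1.53 on 1 array, while the second highest was 0.52.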

How the results depend on the processing

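Apart from single arrays left out, 95 recomputed counts of calls stayed within 1.5 times the reported one and 27 did not, while 892 recomputed values of single clones kept direction and side of the threshold, 15 lost a call, 23 gained one and 5 reversed. With dim clones left out, 2 members were called in C57BL/6J at 4 h (both Spred2), 1 in DBA/2J at 4 h (Mapk3), 1 in C57BL/6J at 8 h (Spry2), both of which passed that filter through their brighter pool so that the call is no support, 3 between the times in C57BL/6J (Mapk8ip1 and 2 Spred2 clones) and 0 for the strain difference at 8 h, since Spry2 itself was left out. Between the non-stressed strains 1 member, Map2k4, was called with no background subtraction, with an offset of 10, without the dye term and by the methods' t-test, and 1 to 2 with an array left out, Map2k1 being called without array 2 and not without any other. For the strain difference at 4 h, 2 members were called with print-tip loess, median centring or the authors' values, 3 with the scan day as a block and 1 to 2 with an array left out; the added ones were Map4k2 (also without array 1 of either strain) and clone 2 of Mapk8ip2 (also without DBA/2J array 10 or C57BL/6J array 8). The scan day as a block gave 1 call, Mapk3, in DBA/2J at 4 h. It was not run for C57BL/6J at 4 h, whose arrays share 1 scan day. Between the times in DBA/2J 1 member was called by the methods' t-test and with the scan day (clone 3 of Map2k1ip1) and with the authors' values (Mapk3), and 0 to 1 with an array left out, the 1 being Mapk3 without DBA/2J array 6 of 4 h. Either orientation alone gave 0 calls between the non-stressed strains and for the strain difference at 4 h, and arrays 1 to 5 alone gave 0 for that at 8 h. For the other genes of the pathway, calls were summed over the 5 direct comparisons. Alternatives chosen after seeing the data gave 0 (arrays 1 to 5), 3 (arrays 6 to 10) and 15 (scan day) against 9. The reversed values were those of Mapk8ip2 clone 1 in DBA/2J at 4 h (0.0377), Mapk10 clone 5 between the strains (-0.1369), Mapk10 clone 2 for the strain difference at 4 h (0.0232) and Mapk9 clone 3 between the times in C57BL/6J (-0.0712) on arrays 1 to 5 alone, and of Map4k2 between the times in C57BL/6J (-0.1223) on arrays 6 to 10 alone. The cause was not tested, beyond the smaller number of arrays or clones that the setting itself brings. The scan-day correlations were near 0 or negative (-0.075 to 0.0287). A negative one lowers the SE, so that a call gained there with the scan day as a block is no support.

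With the array number as a replicate block, which pairs no RNA here, the strain differences held 0 members at each time, with adjusted p = 0.0531 for Mapk3 and 0.0551 for Spry2, and 0 of 10 pairs had a correlation above 0.1.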
